A study of Rattus norvegicus with 8 samples.

Results

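The measurement described here is the injury by unloading interaction in the rat medial collateral ligament, the knee ligament that holds the inner side of the joint. It uses all 8 arrays of the series, 2 in each of 4 groups. Unloaded healing rats had the ligament of both knees disrupted and hung by the tail, with no weight on the hind legs, 24 hours after surgery. Unloaded control rats hung in the same way and had no operation, not even a sham one. Loaded healing rats had the ligaments disrupted and kept walking. Loaded control rats had a sham operation and kept walking. The ligaments of every group were taken after 3 weeks. Surgery therefore differs between the control groups as well as loading, and the parts of each cannot be told apart. The labels give no strain, sex or age, and leave unsaid if the 2 arrays in each came from different animals, pooled tissue or 1 sample run again, so the errors below measure only the spread between arrays.

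An injured ligament first fills with inflammatory cells, macrophages above all, which clear debris and release signals. Fibroblasts then lay down a collagen matrix rich in types III and I, which is remodelled while the ligament carries load. Tail suspension removes that load, and the series title asks how unloading alters wound healing in ligaments.

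The interaction is the healing effect in unloaded rats (unloaded healing minus unloaded control) minus the healing effect in loaded rats (loaded healing minus loaded control), in log2 units. A value above 0 means that the healing effect was higher in unloaded rats. It is built from 4 group means, and a large value can come from any of them. A group was therefore said to carry a value where the gap from its mean to the nearest other group mean was wider than the range of the other 3 means. Where no group met that rule, the value was shared by several groups. A further contrast, loaded healing minus the mean of unloaded healing and loaded control, leaves out the level of the unloaded controls, and is called the loaded healing contrast below.

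The unloaded control arrays stood apart before any gene was considered. Their signals correlated at 0.492 to 0.608 with the other 6 arrays across probe sets, against 0.761 to 0.872 among those 6. Their 99th percentiles were 5494 and 5584, against 9218 to 11290 elsewhere. The actin 5'/3' control ratio, which reads how much of a transcript's length is represented, was 0.964 and 0.634 on them and 0.237 to 0.529 on the rest. The same ratio for GAPDH did not set them apart, with 0.953 and 0.712 on them and 0.729 to 0.896 on the rest. The ligament fibroblast markers of the labelled tissue, 8 genes led by Col1a1, summed to 47613 to 63274 in unloaded healing, 2411 to 2624 in unloaded controls, 106561 to 123780 in loaded healing and 85474 to 105569 in loaded controls. None of the 8 was at 0 on any array, and Thbs4 was the lowest on the unloaded controls, with 75.7 and 41.3. In these bulk samples fewer cells of a type and less RNA per cell cannot be told apart. The part of these array differences in the results was not tested.

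Of 5244 probe sets tested with limma, 254 (4.84%) passed an adjusted p threshold of 0.05 for the interaction. Of these 237 (4.52%) were higher and 17 (0.324%) lower, while 678 passed an unadjusted p of 0.05. The passing values ran from 1.25 to 8.17 with a median of 3.62 on the higher side and from -4.48 to -1.31 with a median of -2.48 on the lower side. The median over all probe sets was -0.16. The largest value, 8.17, belonged to a probe set with no gene symbol, and 154 passing probe sets named 125 genes. With 1 probe set for each of 3228 genes, 99 (3.07%) were higher and 11 (0.341%) lower.

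The groups that carry these differences are unequal. Unloaded controls carried 178 of the 237 higher values (75.11%), each by lying below the other 3 groups. The rule fixes that side, since unloaded controls above the other 3 groups by such a gap give a value below 0. They carried 27.59% of all probe sets tested, a share that counts both sides. Both unloaded control arrays lay below all other 6 arrays for 201 of the 237 (84.8%), against 10.4% of all probe sets. Loaded healing carried 3 of the higher values, loaded controls 3 and unloaded healing 0, and 53 were shared. Of the 17 lower values, loaded healing carried 8 (47.06%), against 13.9% of all probe sets on either side. Unloaded healing carried 4 and unloaded controls 1, and 4 were shared. Single arrays move the count of lower values, which was 32 without unloaded healing replicate 1, 6 without unloaded control replicate 2, and 7 and 8 without loaded healing replicates 1 and 2. In all but 4 of the shared cases unloaded healing and loaded controls lay together on one side and loaded healing and unloaded controls on the other. That arrangement is called crossed here, was defined after the values were seen, and held for 49 higher and 4 lower values. Among all probe sets it was present in 4.6% with the interaction above 0 and 6.86% with it below 0.

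**Figure D1:**
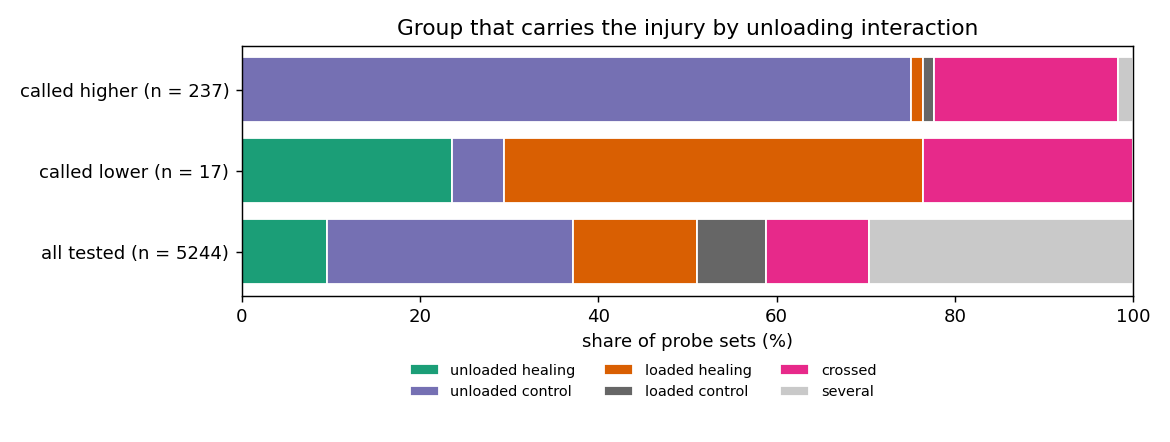
Share of probe sets (horizontal axis, %) by the group that carries the interaction, for probe sets called higher (237), called lower (17) and all tested (5244). The unloaded control colour fills 75.11% of the top bar, loaded healing 47.06% of the middle bar, and unloaded control 27.59% of the bottom bar.

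The healing effects of unloaded and loaded rats, which use separate arrays, correlated at 0.112 across the 5244 probe sets, and probe sets are not independent replicates. The loaded healing contrast passed in 135 probe sets (2.57%), of which 72 (1.37%) were higher and 63 (1.2%) lower. The contrast of unloaded controls with the mean of the other 3 groups passed in 545 (10.4%), with 113 (2.15%) higher and 432 (8.24%) lower. These contrasts share arrays with the interaction, so their values beside it are descriptions and no separate support for it.

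**Figure D2:**
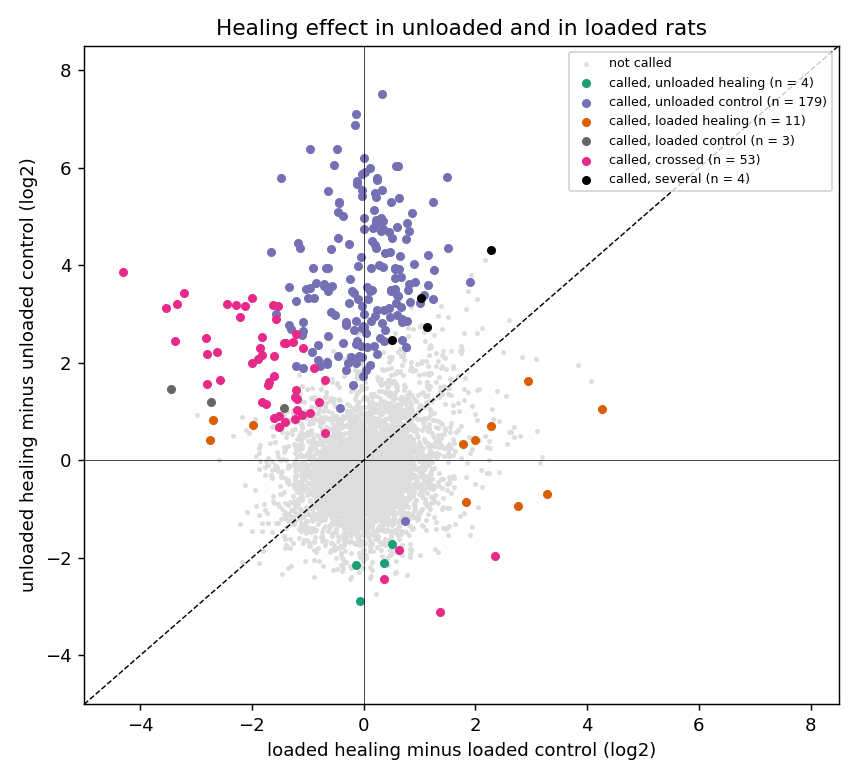
Healing effect in unloaded rats (vertical axis, log2) against that in loaded rats (horizontal axis, log2) for 5244 probe sets. Coloured points passed the interaction test and show the carrying group. The dashed line marks equal effects. Points low on unloaded controls (178 of the 179 in that colour) form a column above 0 near the middle of the horizontal axis. The 49 crossed points with higher values lie up and to the left, and the 4 with lower values down and to the right. Those carried by high loaded healing lie at the right.

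Few of the passing interactions were carried by loaded healing. The 7 with a symbol and a lower interaction are Cxcl13, Slc2a1, Spp1, Eif3d, Ctss, Pgam1 and Psap, and each was highest on the loaded healing arrays. Promoters of 6 of them are in the RefSeq table of assembly GRCr8, and 3 of these 6 hold TATAAA, the core of a TATA box, on one strand or the other in the 250 bases before the gene start. The same letters occur in 12.9% of all 33469 promoters in that window. The sequences of those 3 are shown because they belong to genes with the same group pattern. Each is written 5′ to 3′ along the gene's strand in lower case, with the TATAAA match of either strand in capitals. The match begins 33 bases before the start of Cxcl13 and 204 before that of Spp1 on the gene's strand, and in Ctss it lies on the opposite strand, 238 bases before the start. The letters GGGCGG, a GC box core, occur on either strand in Slc2a1 and Pgam1 and in 30.5% of all promoters. A match is a description of the letters only.
Cxcl13, chr14:13917921-13918170, minus strand: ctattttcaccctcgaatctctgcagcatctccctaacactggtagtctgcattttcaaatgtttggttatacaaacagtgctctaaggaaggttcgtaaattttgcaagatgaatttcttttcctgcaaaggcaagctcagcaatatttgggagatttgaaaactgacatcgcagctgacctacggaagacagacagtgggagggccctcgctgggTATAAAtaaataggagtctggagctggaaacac
Spp1, chr14:5619805-5620054, minus strand: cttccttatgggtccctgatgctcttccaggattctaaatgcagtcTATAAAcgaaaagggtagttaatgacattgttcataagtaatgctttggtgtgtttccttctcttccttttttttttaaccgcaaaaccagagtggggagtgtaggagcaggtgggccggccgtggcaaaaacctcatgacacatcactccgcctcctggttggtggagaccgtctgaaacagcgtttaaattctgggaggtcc
Ctss, chr2:185775146-185775395, plus strand: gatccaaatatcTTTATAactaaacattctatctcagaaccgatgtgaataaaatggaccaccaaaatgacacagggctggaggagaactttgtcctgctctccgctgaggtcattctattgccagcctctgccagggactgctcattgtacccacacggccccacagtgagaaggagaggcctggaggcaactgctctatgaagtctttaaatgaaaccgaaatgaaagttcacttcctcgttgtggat

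Spp1 encodes osteopontin, a secreted phosphoprotein of matrix and of activated macrophages. It read 721.1 and 536.2 in unloaded healing, 304.8 and 247.4 in unloaded controls, 11380.1 and 7321.8 in loaded healing, and 407.0 and 453.7 in loaded controls. Both loaded healing arrays were far above the other 6. The healing effect was 1.06 ± 0.33 (SE, log2) in unloaded rats, which did not pass the test, and 4.27 ± 0.33 in loaded rats, which did. The interaction was -3.21 ± 0.46 (limma adjusted p = 0.00144, n = 2 arrays per group), and the loaded healing contrast was 4.02 ± 0.28. The call held in each fit that left out 1 array.

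Cxcl13 is a chemokine that draws B cells, and its promoter carries the match nearest to a gene start of those shown above. It read 277.6 and 189.5 in unloaded healing, 414.6 and 377.5 in unloaded controls, 2184.9 and 1643.7 in loaded healing, and 95.9 and 232.4 in loaded controls. The loaded healing arrays lay above all others, and the unloaded controls were not low. The interaction was -3.97 ± 0.68 (limma adjusted p = 0.00461) and the loaded healing contrast 3.05 ± 0.41. Its healing effect was -0.68 ± 0.48 in unloaded rats and 3.29 ± 0.48 in loaded rats.

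A pair of the genes serve the lysosome. Ctss, cathepsin S, a protease of antigen-presenting cells, read 895.0 and 1159.7 in unloaded healing, 734.8 and 770.0 in unloaded controls, 2917.4 and 2735.8 in loaded healing, and 673.3 and 673.1 in loaded controls. The loaded healing arrays were the highest, with unloaded healing next and apart from both control groups. The interaction was -1.58 ± 0.38 (limma adjusted p = 0.0411), and the call held in only 1 of the 8 fits that left out an array. Psap, which encodes the precursor of the saposins that help break down sphingolipids, read 4251.3 and 4376.7 in unloaded healing, 1310.8 and 1402.6 in unloaded controls, 26190.2 and 20143.0 in loaded healing, and 3150.5 and 2746.9 in loaded controls. Here loaded healing was highest and unloaded controls lowest, with no overlap between any of the groups. The interaction was -1.31 ± 0.27 (limma adjusted p = 0.016) and the call held in 4 of the 8 such fits. The other Psap probe sets, both dimmer, gave 0.74 and 1.29 and did not pass.

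A further pair serve glucose use. Slc2a1, the glucose transporter GLUT1, read 51.8 and 291.3 in unloaded healing, 203.2 and 430.7 in unloaded controls, 2247.1 and 2242.1 in loaded healing, and 256.1 and 333.9 in loaded controls. The loaded healing arrays agreed closely and lay above the rest, while the unloaded healing arrays were spread widely. The interaction was -3.68 ± 0.86 (limma adjusted p = 0.0369) and the call held in 2 of the 8 fits without an array. Pgam1, a phosphoglycerate mutase of glycolysis, read 1928.4 and 1977.2 in unloaded healing, 1804.5 and 1306.9 in unloaded controls, 7996.0 and 6385.0 in loaded healing, and 2030.3 and 2072.5 in loaded controls. Its interaction was -1.44 ± 0.32 (limma adjusted p = 0.0259), kept in 1 of the 8. A brighter Pgam1 probe set had an interaction of 0.05 and a loaded healing contrast of -0.19, and a dimmer one had an interaction of -1.04 and a loaded healing contrast of 1.63. Neither of these passed. Eif3d, a subunit of the translation initiation factor eIF3, had an interaction of -2.68 ± 0.65 (limma adjusted p = 0.0437), and the call was kept in 0 of the 8.

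Loaded healing carried 3 of the higher values, by lying below the other groups. Nbl1, a secreted antagonist of bone morphogenetic proteins, read 1982.4 and 2052.5 in unloaded healing, 1045.4 and 1181.3 in unloaded controls, 158.6 and 482.8 in loaded healing, and 1988.5 and 2201.2 in loaded controls. Both loaded healing arrays fell below all others. The interaction was 3.54 ± 0.57 (limma adjusted p = 0.00315) and the loaded healing contrast -2.68 ± 0.35. Actg1, cytoplasmic gamma actin, gave 2.72 ± 0.40 and a loaded healing contrast of -1.93 ± 0.24, but its probe set is of a kind that can read several members of a family. A probe set of Eef1a1, the elongation factor that brings tRNA to the ribosome, gave 3.16 ± 0.64 with loaded healing low, and the call held in 4 of the 8 fits without an array, whereas a brighter Eef1a1 probe set gave 4.60 ± 0.33 with unloaded controls low and a loaded healing contrast of 0.10.

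**Figure D3:**
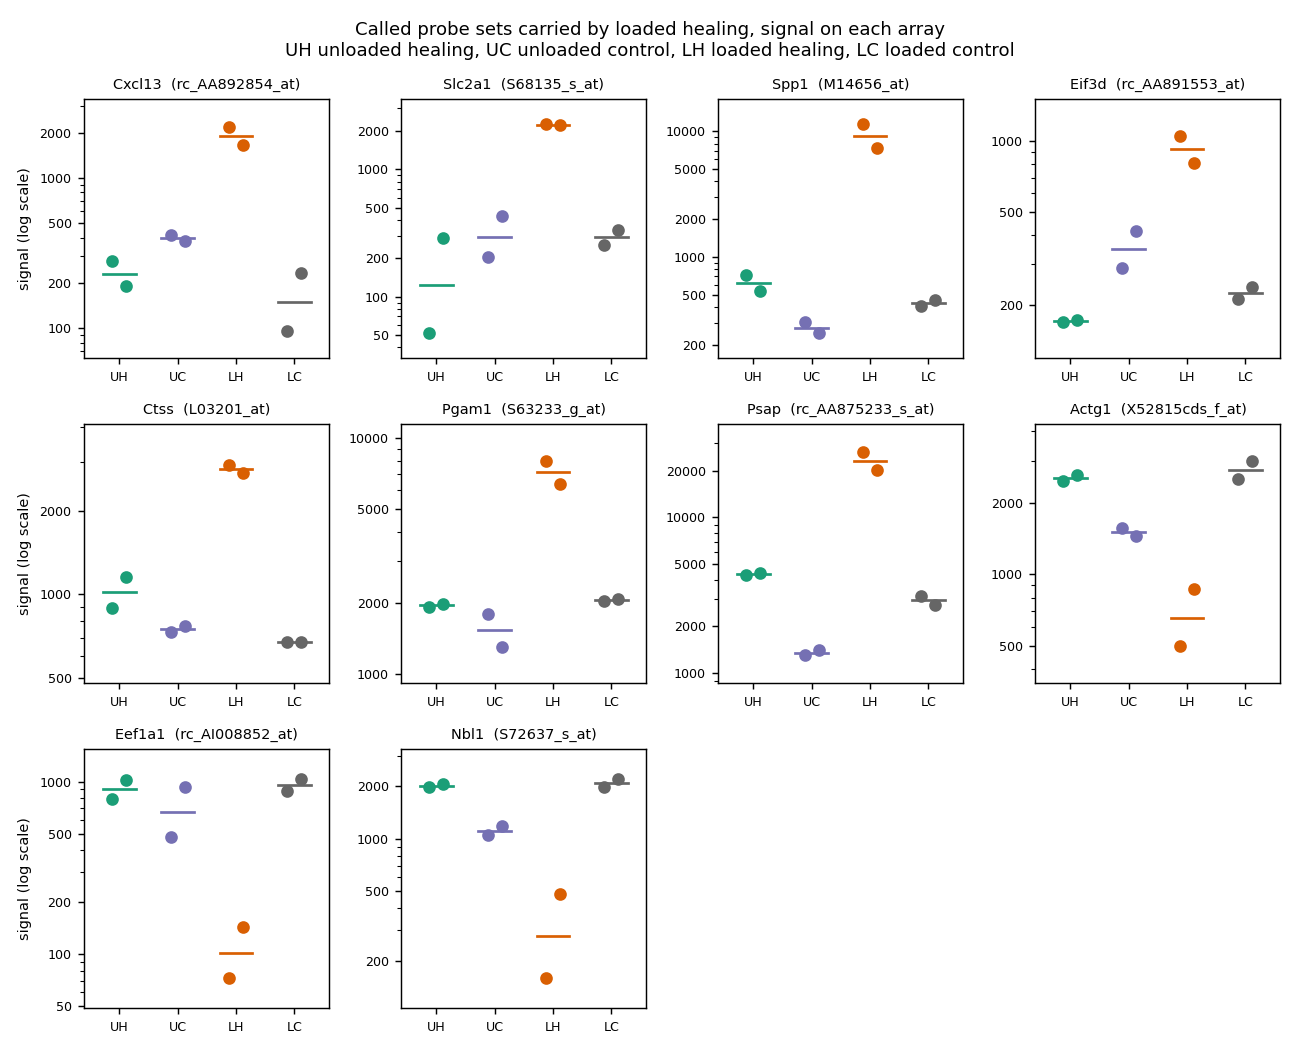
Signal (vertical axis, log scale) on each array for the 10 named probe sets with a passing interaction carried by loaded healing. Points are arrays and lines are geometric means, for unloaded healing (UH), unloaded control (UC), loaded healing (LH) and loaded control (LC). Loaded healing is the highest group in the first 7 panels and the lowest in the last 3.

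Other genes set loaded healing apart without a passing interaction, and were picked after their values were seen. Lyz2, macrophage lysozyme, read 2422.4 and 2465.7 in unloaded healing, 578.1 and 516.9 in unloaded controls, 16260.4 and 13978.0 in loaded healing, and 2144.3 and 1391.7 in loaded controls. Its loaded healing contrast was 2.85 ± 0.21, and its interaction was -1.02 ± 0.34 (limma adjusted p = 0.187). Mmp12, the macrophage elastase, read 569.0 and 561.1 in unloaded healing, 122.9 and 102.9 in unloaded controls, 4904.1 and 3319.1 in loaded healing, and 350.4 and 157.4 in loaded controls. Its loaded healing contrast was 3.29 ± 0.38 and its interaction -1.90 ± 0.62 (limma adjusted p = 0.174). For both genes unloaded controls were the lowest group, so the healing effect in unloaded rats was above 0 as well. For Mmp13, a collagenase, the loaded healing contrast was 2.56 ± 0.55 and the interaction -3.14 ± 0.89 (limma adjusted p = 0.0974). For Fn1, fibronectin of the provisional matrix, they were 1.64 ± 0.22 and -0.06 ± 0.36 (limma adjusted p = 0.974).

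Of the 14 measured genes of the macrophage list, 1 passed the interaction higher (Cd74, carried by unloaded controls) and 1 lower (Ctss), against 3.07% and 0.341% of all genes. The loaded healing contrast passed in 5, each higher, namely Apoe, Ctss, Lgals3, Lyz2 and RT1-Da, against 44 higher (1.36%) and 19 lower (0.589%) of 3228 genes. A second Cd74 probe set had a loaded healing contrast of 2.38 and an interaction of -0.62, and neither passed. The 14 signals summed to 22267 to 22787 in unloaded healing, 10206 to 10751 in unloaded controls, 53814 to 59745 in loaded healing and 17557 to 18482 in loaded controls. The sums of the 4 groups did not overlap, but bright genes such as Lyz2 weigh most in a sum. The median of the 14 signals was 902 and 1021 in unloaded healing and 565 and 669 in unloaded controls. It was 970 and 1117 in loaded healing and 849 and 783 in loaded controls, so the healing groups overlapped. The median loaded healing contrast of the 14 was 0.17. Ptprc, the pan-leukocyte CD45, had an interaction of -0.83 and Aif1, a macrophage calcium-binding protein, one of -0.07, and neither passed. The part of macrophage number in the loaded healing values was not tested.

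A pair of fibrillar collagen genes, Col1a2 and Col3a1, had a probe set on which the interaction and the loaded healing contrast both passed higher. Loaded healing was the highest group on each. It was also the highest on the brightest Col1a1 probe set, given below, whose loaded healing contrast of 0.58 did not pass. Col1a2, a chain of type I collagen, read 5118.0 and 4489.8 in unloaded healing, 839.7 and 816.3 in unloaded controls, 21950.2 and 16673.1 in loaded healing, and 13163.9 and 10798.7 in loaded controls. The groups did not overlap, and unloaded healing lay below both loaded groups. The interaction was 1.79 ± 0.27 (limma adjusted p = 0.00225), carried by unloaded controls, and the loaded healing contrast was 1.33 ± 0.17. Col3a1, the type III collagen of early repair tissue, read 2505.7 and 2634.2 in unloaded healing, 127.4 and 104.0 in unloaded controls, 6629.1 and 5376.8 in loaded healing, and 3171.6 and 3207.6 in loaded controls, with an interaction of 3.13 ± 0.33 and a loaded healing contrast of 1.05 ± 0.20. Another Col3a1 probe set, dimmer, differed in form, with 1036.1 and 2022.0 in unloaded healing, 690.3 and 625.5 in unloaded controls, 874.5 and 872.4 in loaded healing, and 1330.1 and 1541.5 in loaded controls. Its interaction was 1.77 and its loaded healing contrast -0.69, and neither passed. In the contrast of unloaded with loaded healing, which leaves out both control groups, the 2 genes were lower in unloaded healing, at -1.99 ± 0.19 (limma adjusted p = 0.000888) for Col1a2 and -1.20 ± 0.23 (limma adjusted p = 0.0344) for the brighter probe set of Col3a1. On these probe sets the sign of the interaction therefore does not give the direction of unloaded against loaded healing. Of 8 collagens measured, 3 passed higher and 0 lower, with a median of -0.02, against 3.07% higher and a median of -0.17 over all genes.

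The values carried by unloaded controls are the largest group, with a median interaction of 3.62, a median of -3.56 for unloaded controls against the other 3 groups, and a median loaded healing contrast of 0.03. The class requires low unloaded controls on these same arrays, so selection sets part of these medians. The 98 probe sets of this class with a symbol named 79 genes, of which 27 encode cytosolic ribosomal proteins. Of all 3228 genes tested, 36 are of that kind. The 27 count any probe set of a gene, and the list counts below use only the brightest. At the top were the mitochondrially encoded subunits of cytochrome c oxidase. COX3 read 208176 and 185970 in unloaded healing, 2747.3 and 2548.3 in unloaded controls, 164316 and 170012 in loaded healing, and 161918 and 169765 in loaded controls. The unloaded controls lay far below the other groups, which were close together. The interaction was 6.18 ± 0.19 (limma adjusted p = 3.05e-08), with a healing effect of 6.19 in unloaded rats and 0.01 in loaded rats. A COX1 probe set gave 6.59 ± 0.21, and COX2 gave 3.97 ± 0.30.

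Ribosomal protein genes gave the most passing members of any list counted. Of 36, 31 had a higher interaction, against 3.07% of all genes, and 0 a lower one, also at an unadjusted p. Their median was 3.32, and unloaded controls carried 25 of the 31 while 6 were crossed. Rpl26, of the large subunit, read 5946.4 and 5365.5 in unloaded healing, 62.5 and 42.1 in unloaded controls, 6808.8 and 5417.5 in loaded healing, and 6564.1 and 5901.9 in loaded controls. The other 3 groups overlapped, and the unloaded controls were near the offset of 45.8 added before taking logs. Its interaction was 5.90 ± 0.32 (limma adjusted p = 1.21e-06). On their probe set with the largest value, Rpl11 gave 6.16, Rpl13a 5.74, Rpl3 5.56 and Rpl4 5.39, with the same group low.

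Matrix genes of ligament fibroblasts followed. Sparc, a collagen-binding matrix glycoprotein, read 25748.2 and 19466.5 in unloaded healing, 1154.4 and 1068.9 in unloaded controls, 12677.1 and 11370.4 in loaded healing, and 37960.1 and 38169.5 in loaded controls. The 4 groups did not overlap. Its interaction was 5.94 ± 0.24 (limma adjusted p = 1.97e-07), and part of it came from a loaded healing effect of -1.66 ± 0.17. The other Sparc probe sets, both dimmer, passed with 4.48 and 1.85, and their loaded healing contrasts were -0.98 and 0.33, against -1.28 on the brightest. Col1a1, the other chain of type I collagen, read 50509.5 and 34752.7 in unloaded healing, 699.0 and 763.1 in unloaded controls, 84665.6 and 73916.0 in loaded healing, and 75948.8 and 59573.3 in loaded controls, with an interaction of 5.52 ± 0.29. Other Col1a1 probe sets, all dimmer, passed with 3.15, 2.19 and 2.14. The one at 2.19 was crossed, and its loaded healing contrast of -1.11 passed, against 0.58 on the brightest. Dcn, the small proteoglycan decorin, gave 4.21 ± 0.45 on its brightest probe set. Dimmer Dcn probe sets gave 2.78, which passed, and 1.47 and 1.47, which did not. Of the 8 ligament fibroblast markers 7 passed higher and 0 lower, with a median of 3.05, against 3.07% higher and a median of -0.17 over all genes. Lox, which crosslinks collagen, gave 2.17 ± 0.43, though the call held in only 4 of the 8 fits without an array. Its other probe sets gave 0.78 and -0.48 and did not pass.

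Of 27 adhesion and actin genes, 9 passed higher, against 3.07% of all genes, and 0 lower, and unloaded controls carried 7 of the 9. Vim, the intermediate filament vimentin, read 6418.1 and 3994.9 in unloaded healing, 162.4 and 35.3 in unloaded controls, 18919.6 and 13964.0 in loaded healing, and 6735.3 and 6930.5 in loaded controls. Unloaded controls were lowest and loaded healing highest, and the interaction was 4.05 ± 0.57 (limma adjusted p = 0.00114). S100a10, the partner of annexin A2, gave 5.29 ± 0.39, and Lgals1, a secreted galectin, 5.02 ± 0.34. Cd74, the invariant chain of MHC class II, gave 3.49 ± 0.57 with a loaded healing contrast of 0.05 on its brighter probe set, while its other one did not pass, as given above. Oxidative phosphorylation genes were mixed, with 7 of 38 higher, 0 lower and a median of 0.49, against the same background of 3.07%. Nupr1, a stress-induced nuclear protein, gave 3.63 ± 0.44.

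**Figure D4:**
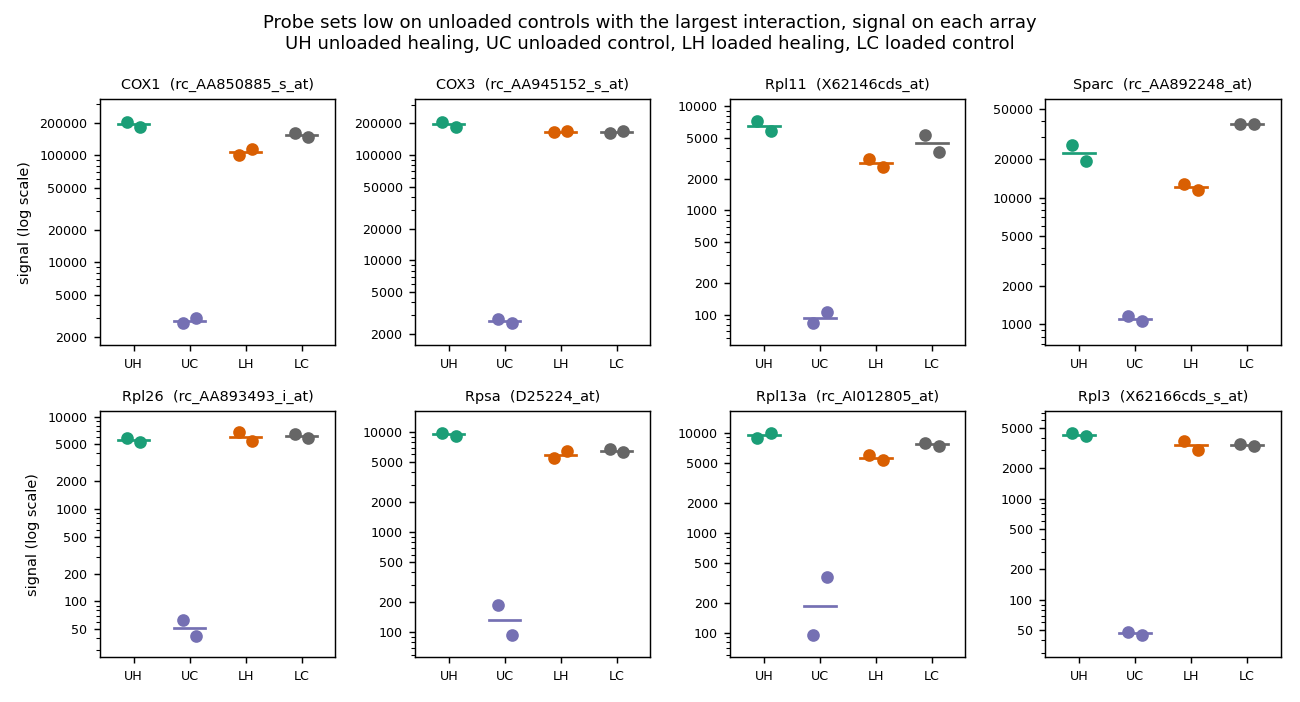
Signal (vertical axis, log scale) on each array for the 8 named genes with the largest interaction carried by unloaded controls. Points are arrays and lines are geometric means, for unloaded healing (UH), unloaded control (UC), loaded healing (LH) and loaded control (LC). The unloaded control arrays lie lowest in each panel, as with 2747.3 and 2548.3 for COX3.

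These higher values gathered on bright probe sets. When the 5244 were split by mean signal into bins of 1048 or 1049, 2, 7, 8, 40 and 180 passed higher from the dimmest bin to the brightest, or 0.191% to 17.2% of a bin. The lower values were 0, 2, 4, 5 and 6 over the same bins. The median interaction was -0.25 in the dimmest bin and 0.04 in the brightest. The brightest bin is also where the unloaded control arrays had their low 99th percentile.

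The crossed group of 49 higher probe sets, which named 31 genes, is low on loaded healing and unloaded controls together. Its medians were 3.80 for the interaction, -1.59 for the loaded healing contrast and -1.51 for unloaded controls against the rest. Low values on those groups define the class, so selection sets part of these medians. Unloaded healing minus loaded control had a median of -0.12 and ran from -1.03 to 0.52. Loaded healing was the lowest of the 4 in 20 and unloaded control in 29. The actin 3' control probe set, which is no member of the test, had the same form with 4786 and 5235 in unloaded healing, 1284 and 1494 in unloaded controls, 1353 and 1597 in loaded healing, and 4393 and 4955 in loaded controls. Actb, tested on another probe set, had a different form, carried by unloaded controls at 566.9 and 537.8. It read 9195.8 and 5965.3 in unloaded healing, 5688.1 and 5142.2 in loaded healing, and 8651.5 and 11113 in loaded controls. The Actb loaded healing contrast of -0.65 did not pass. The part of the actin 3' control probe set in the crossed values was not tested.

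Nfix, a nuclear factor I transcription factor, read 1400.5 and 1385.6 in unloaded healing, 223.2 and 328.6 in unloaded controls, 302.0 and 120.3 in loaded healing, and 2025.2 and 1321.3 in loaded controls. The loaded healing and unloaded control arrays overlapped each other and lay below the rest. The interaction was 4.99 ± 0.63 (limma adjusted p = 0.000563), with a healing effect of 2.18 in unloaded rats and -2.81 in loaded rats. A brighter Nfix probe set gave 0.19, with a loaded healing contrast of -0.44, and did not pass. Capns1, the small regulatory subunit of calpain, read 2111.8 and 1579.6 in unloaded healing, 478.1 and 258.2 in unloaded controls, 327.2 and 253.3 in loaded healing, and 2499.6 and 1604.8 in loaded controls, and gave 4.85 ± 0.55. Psmb5, a catalytic subunit of the proteasome, read 455.7 and 521.9 in unloaded healing, 143.8 and 124.3 in unloaded controls, 55.7 and 27.8 in loaded healing, and 584.4 and 526.4 in loaded controls. For Psmb5 loaded healing was the lowest group, and the interaction was 4.37 ± 0.72 (limma adjusted p = 0.00371). A brighter Psmb5 probe set gave -0.06, with a loaded healing contrast of 0.83, and did not pass.

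Matrix genes were among the crossed values too. Pcolce, which enhances the cleavage of procollagen, read 1295.2 and 1338.3 in unloaded healing, 614.1 and 236.1 in unloaded controls, 151.1 and 126.3 in loaded healing, and 892.8 and 1235.9 in loaded controls. Loaded healing was lowest and the interaction was 4.23 ± 0.66 (limma adjusted p = 0.00239). Bgn, the small proteoglycan biglycan, read 6478.0 and 5504.2 in unloaded healing, 1297.6 and 922.3 in unloaded controls, 3378.8 and 2285.8 in loaded healing, and 8014.0 and 6697.2 in loaded controls, with 3.78 ± 0.35. Ppib, an endoplasmic reticulum prolyl isomerase that folds procollagen, gave 2.21 ± 0.46, kept in 1 of the 8 fits without an array. Igf1, the growth factor, gave 2.77 ± 0.57 and Igfbp6, which binds insulin-like growth factors, 2.45 ± 0.36. The Igf1 call held in 4 of the 8 fits. Other Igf1 probe sets gave 0.80 and 0.01, and another Bgn probe set, dimmer, gave 1.62. None of these passed.

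For several crossed genes another probe set gave a different form. For Rpl6 and Ppib another probe set was crossed too, with loaded healing contrasts of -1.88 and -1.63. Of the 31 genes, 16 had 25 further tested probe sets outside the class, whose median loaded healing contrast was -0.07, against -1.57 for the crossed ones. The crossed class requires low loaded healing and these 25 lie outside it, so selection sets part of that gap. Of those 25, 8 passed the interaction and 1 passed the loaded healing contrast as lower. Atp5f1e, a small subunit of ATP synthase, is a case in point. Its crossed probe set read 2071.3 and 1831.6 in unloaded healing, 222.8 and 206.4 in unloaded controls, 487.7 and 420.1 in loaded healing, and 1973.1 and 2572.6 in loaded controls, and gave 5.14 ± 0.43. Its other probe set, brighter, read 3972.3 and 3933.2 in unloaded healing, 118.5 and 131.8 in unloaded controls, 5968.5 and 5719.9 in loaded healing, and 3319.6 and 3522.7 in loaded controls, and gave 3.78 ± 0.30. Both had low unloaded controls, and loaded healing was low on the first and high on the second. Capns1 likewise had a second probe set with an interaction of 2.14 ± 0.35 and a loaded healing contrast of 0.03, against -2.55 on the crossed one.

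**Figure D5:**
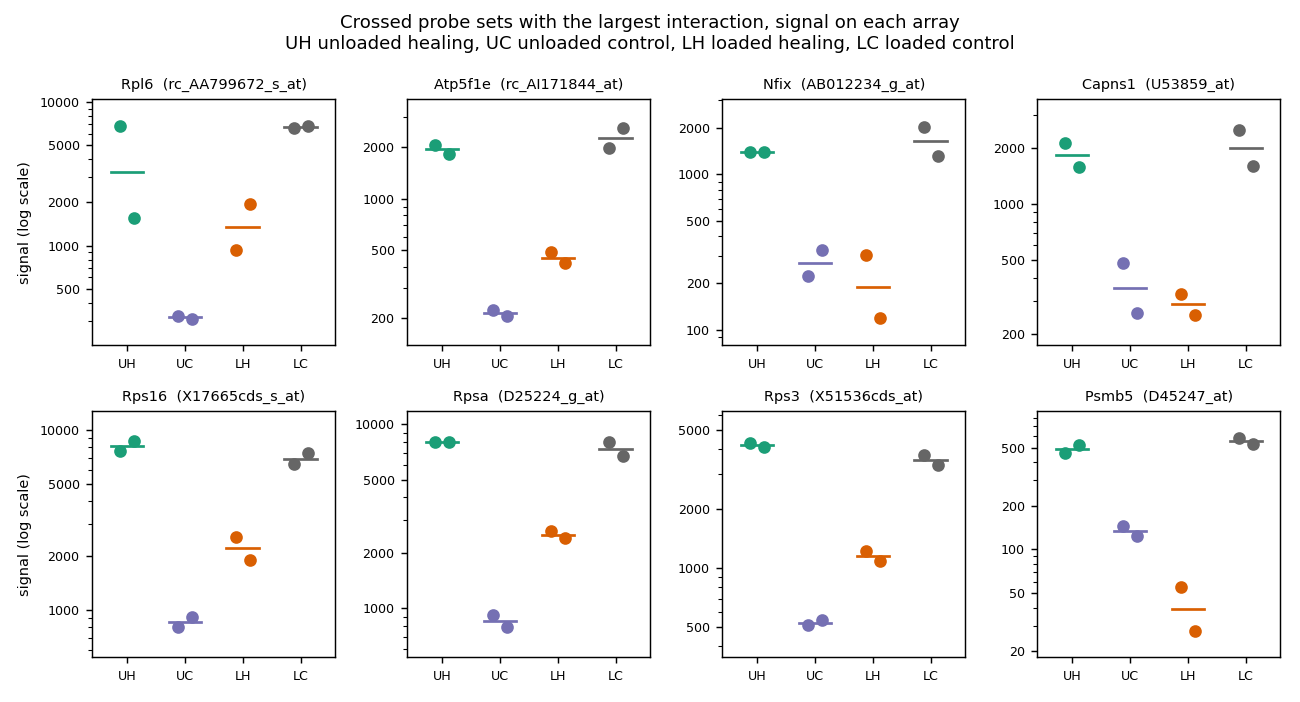
Signal (vertical axis, log scale) on each array for the 8 named crossed genes with the largest interaction. Points are arrays and lines are geometric means, for unloaded healing (UH), unloaded control (UC), loaded healing (LH) and loaded control (LC). Unloaded healing and loaded control means lie above both others in each panel, and the unloaded healing arrays of Rpl6 are spread from 1547.3 to 6862.8.

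Loaded controls carried 3 higher values by lying above the other groups, and 0 with a gap of 2 times the range. Comp, cartilage oligomeric matrix protein, which is abundant in loaded tendon and ligament, read 524.0 and 536.0 in unloaded healing, 137.3 and 302.1 in unloaded controls, 223.2 and 360.8 in loaded healing, and 1859.8 and 2505.5 in loaded controls. The loaded controls lay above all others, and unloaded controls overlapped loaded healing. The interaction was 3.93 ± 0.63 (limma adjusted p = 0.00315), with a healing effect of 1.19 in unloaded rats and -2.74 in loaded rats. Gpx3, the secreted glutathione peroxidase, gave 4.92 ± 0.82 on this probe set, while a brighter probe set gave 1.51 ± 0.25 with unloaded controls low. Tle5, a transcriptional corepressor, gave 2.50 ± 0.56, kept in 3 of the 8 fits without an array. Other Tle5 probe sets gave 2.22, -0.82 and -0.05 and did not pass.

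Unloaded healing carried 4 of the lower values by lying below the other groups, and 2 of them with a gap of 2 times the range. Polr3a, the largest subunit of RNA polymerase III, read 150.4 and 224.3 in unloaded healing, 1618.7 and 1706.3 in unloaded controls, 992.9 and 1236.1 in loaded healing, and 1381.3 and 966.1 in loaded controls. The unloaded healing arrays lay below all others, and the unloaded controls above all others. The interaction was -2.83 ± 0.47 (limma adjusted p = 0.00406), and the healing effect was -2.89 in unloaded rats and -0.06 in loaded rats. Nos3, the endothelial nitric oxide synthase, gave -2.01 ± 0.43 on one probe set, and its other 3 gave -1.38, 0.54 and -0.40 without passing. Plcb2, a phospholipase C of G protein signalling, gave -2.48 ± 0.53 and Lgals8, a galectin, -2.22 ± 0.54. The calls of Nos3 and Plcb2 each held in 1 of the 8 fits without an array and that of Lgals8 in 0, whereas the Polr3a call held in each.

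The remaining lower values with a symbol were high on unloaded controls or crossed. Homer1, a synaptic scaffold protein, had the lowest interaction of all, -4.48 ± 0.92 (limma adjusted p = 0.0166). It read 71.8 and 166.9 in unloaded healing, 1428.4 and 1228.6 in unloaded controls, 586.0 and 548.1 in loaded healing, and 72.6 and 434.2 in loaded controls. Its other 4 probe sets gave values between -0.23 and 0.40, and the call held in 3 of the 8 fits without an array. Ngfr, the p75 neurotrophin receptor, gave -2.48 ± 0.51, Or1f20, an olfactory receptor, -2.79 ± 0.55, and Cyp2c23, a cytochrome P450, -1.98 ± 0.44. The Or1f20 probe set is of a kind that can read several members of a family. Of the 8 fits without an array, the call held in 4 for Ngfr, 6 for Or1f20 and 1 for Cyp2c23. A brighter Ngfr probe set, also of a kind that can read several family members, gave 0.65 and did not pass. Nor did another Or1f20 probe set, at -0.09, or other Cyp2c23 probe sets, at 0.54 and -1.20.

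Haemoglobin differed from the classes above. Hbb read 2566.7 and 2631.3 in unloaded healing, 241.8 and 193.7 in unloaded controls, 1428.1 and 1544.4 in loaded healing, and 850.4 and 585.5 in loaded controls. The groups did not overlap, and both healing groups were above their controls. The interaction was 2.31 ± 0.43 (limma adjusted p = 0.00935), and Hbb-b1 gave 1.60 ± 0.37, kept in 1 of the 8 fits without an array. These near-identical genes share sequence, so their signals are not separate. They were 2 of 7 erythroid genes measured, against 3.07% of all genes, and 0 were lower.

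In 8 lists of other cell types and responses 0 genes passed, against 3.07% higher and 0.341% lower over all genes. The count was 0 in either direction by limma for 25 skeletal muscle genes, 24 immediate early genes, 20 cell cycle genes, 16 lymphocyte and mast cell genes, 15 adipocyte and lipid genes, 10 myofibroblast genes, 10 nerve and Schwann cell genes and 9 glucocorticoid response genes. At an unadjusted p of 0.05, 8 of these 129 entries were higher (6.2%) and 6 lower (4.65%), against 6.29% and 5.08% of all genes. These were uneven, with 5 of the 25 muscle genes higher (20%) and 4 of the 15 adipocyte genes lower (26.7%). The list medians lay between -0.48 for the adipocyte list and 0.30 for the muscle list. Among matrix proteases and inhibitors 1 of 25 passed, as lower, and among inflammatory mediators Cxcl13 was the 1 lower and Mif the 1 higher of 29. The Mif call held in 1 of the 8 fits without an array. Lpl, the lipoprotein lipase, read 1108.7 and 1409.3 in unloaded healing, 1174.2 and 937.4 in unloaded controls, 5235.8 and 5421.7 in loaded healing, and 972.8 and 1861.5 in loaded controls. Its loaded healing contrast was 2.00 ± 0.27 and its interaction -1.70 ± 0.44 (limma adjusted p = 0.064), just outside the threshold. The other Lpl probe sets, both dimmer, had interactions of -0.43 and -0.40 and loaded healing contrasts of 0.96 and 0.68. None of these passed.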

How the data were processed

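Expression in rat medial collateral ligaments was measured on 8 one-colour oligonucleotide arrays, 2 per group, and the groups were taken from the sample titles. Each deposited value is the linear intensity of a probe set, already scaled between arrays by the authors, since the 2% trimmed mean was 500.3 to 500.6 on each array of the deposited table. The software is not given in the sources used here. Array medians ran from 238.7 to 315.9, and precision is limited by how few arrays there are.

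Of 8799 probe sets, 59 array controls were left out. Values were raised by 45.8, which is their overall 10th percentile, and log2 was taken. The 40% with the lowest mean were removed (3496), which left 5244. Log2 differences include this offset, which shrinks those of dim probe sets. Gene symbols are those of GEO's platform annotation (7006 probe sets with 1, 308 with several, 1426 with none) and 6985 of those with 1 were matched to RefSeq, assembly GRCr8. Probe sets were not placed on the genome, and all 8 columns of the table were used.

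The fit, in limma 3.58.1 (R 4.3.3), had 1 mean for each of the 4 groups and variances that follow intensity (4 residual and 5.81 prior degrees of freedom). Tests were two-sided, with Benjamini-Hochberg adjustment over the 5244. Errors are standard errors on the log2 scale. The fit was tested on simulated data. The 26 gene lists used the brightest probe set of each gene and were counted only. Named genes were, for each carrying group and direction, the 8 largest passing values, plus up to 4 passing members of each list, or the 2 largest where none passed. The members, lists and rules were chosen with earlier results of these data known.

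Alternatives were quantile normalization, median centring, scaling to spike-in controls, a floor in place of the offset, 4 times the offset, dropping the filter or raising it to 60%, no intensity trend, a robust fit, a replicate block, averaged probe sets of a gene, a carrier gap of 2 times the range, a fit without unloaded controls and leaving out each array in turn, after which the lone array was assumed to vary like the other groups.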

Additional observations from a re-analysis of the deposited data

Results flagged for a closer look

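Each result here has a healing effect that differs between unloaded and loaded rats by the interaction test in limma, which passed for 254 probe sets. Groups of 2 arrays are too small for a test of a single outlying array.

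Among named probe sets, those carried by unloaded healing were Nos3 at -2.01, Lgals8 at -2.22, Plcb2 at -2.48 and Polr3a at -2.83. Those high on loaded healing were Psap at -1.31, Pgam1 at -1.44, Ctss at -1.58, Eif3d at -2.68, Spp1 at -3.21, Slc2a1 at -3.68 and Cxcl13 at -3.97, and those low on it were Nbl1 at 3.54, Eef1a1 at 3.16 and Actg1 at 2.72. Those carried by loaded controls were Gpx3 at 4.92, Comp at 3.93 and Tle5 at 2.50.

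Those low on unloaded controls began with the mitochondrial COX1 (6.59 and 5.90 on separate probe sets), COX3 (6.18) and COX2 (3.97). The ribosomal and translation genes with that form were Rpl11 (6.16 and 5.19), Rpl26 (5.90), Rpsa (5.85), Rpl13a (5.74), Rpl3 (5.56), Rpl4 (5.39), Eef1a1 (4.60), Naca (4.09) and Eef1g (3.00). Matrix genes were Sparc (5.94), Col1a1 (5.52), Dcn (4.21), Col3a1 (3.13), Lox (2.17) and Col1a2 (1.79). The others were S100a10 (5.29), Lgals1 (5.02), Actb (4.49), Vim (4.05), Atp5f1e (3.78), Nupr1 (3.63), Cd74 (3.49), Capns1 (2.14) and Gpx3 (1.51). Cyp2c23 (-1.98) was the 1 named gene carried by unloaded controls by lying above the other groups.

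Crossed probe sets with higher values were Rpl6 (5.47), Atp5f1e (5.14), Nfix (4.99), Capns1 (4.85), Rps16 (4.81), Rpsa (4.69), Rps3 (4.47), Psmb5 (4.37), Pcolce (4.23), Gpx4 (3.98), Bgn (3.78), Igf1 (2.77), Igfbp6 (2.45), Ppib (2.21) and Mif (1.25). Ngfr (-2.48), Or1f20 (-2.79) and Homer1 (-4.48) were crossed with lower values. Hbb (2.31) and Hbb-b1 (1.60) were shared by several groups in another order.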

How the results depend on the processing

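The count of 254 interaction calls stayed within 1.5 times under every alternative (213 to 328), and no named value changed sign. Of 67 named interaction calls, 46 held whichever array was left out and 43 under every alternative run. The 17 lower calls were less stable, with 77 under quantile normalization, 8 under median centring, 48 under spike-in scaling and 6 to 32 without 1 array (32 without unloaded healing replicate 1, 6 without unloaded control replicate 2, 7 and 8 without loaded healing replicates 1 and 2). Higher calls made up 93.3% of all calls, against 76.5% under quantile normalization and 79.3% under spike-in scaling, which moved the median interaction of all probe sets by -0.54, while median centring moved it by 0.22. The 11 calls carried by loaded healing became 6 under median centring, 7 with a carrier gap of 2 times the range (2 of 4 for unloaded healing, 0 of 3 for loaded controls), and 4 to 9 without 1 array (6 without unloaded healing replicate 1, 4 without loaded healing replicate 1, 7 and 5 without loaded control replicates 1 and 2). Calls carried by unloaded controls ranged from 157 to 243, against 179. The 49 crossed higher calls became 23 under spike-in scaling.

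The loaded healing contrast (135 calls, 72 higher, 63 lower) gave 49, 26 and 23 without the intensity trend. Spike-in scaling gave 176 higher and 25 lower. Leaving out 1 array gave 30 to 127 in all, 7 to 71 higher and 23 to 56 lower, the lowest in each case without loaded healing replicate 1. The total was also 44 without loaded healing replicate 2, and 77 and 78 without loaded control replicates 1 and 2. A fit without unloaded controls gave 160, of which 95 were higher. The 545 calls of unloaded controls against the rest became 847 under quantile normalization and 358 to 560 without 1 array (358 without unloaded control replicate 2). The cause of these shifts was not tested. The replicate block gave 270 interaction calls (250 higher, 20 lower) and moved no count by over 1.5 times. Deviations of same-numbered arrays from their group means correlated at 0.0008 to 0.204. The 3 of the 6 pairs of groups over 0.1 were those among unloaded healing, loaded healing and loaded controls. Pairs with unloaded controls gave 0.0008 to 0.0144. Array medians were 250.8, 245.2 and 238.7 for replicate 1 of those 3 groups and 286.2, 282.3 and 280.1 for replicate 2. On unloaded controls they were 313.6 and 315.9. The cause was not tested, and in the main fit the numbers were not used as pairs.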
